A study of Mus musculus with 6 samples.

Results

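The integrated stress response and the unfolded protein response are described here by 35 genes in C2C12, an immortalised line of mouse myoblasts able to form myotubes, taken 48 h after a change to low horse serum with insulin. The stable lines held shRNA constructs that targeted BAF250A, BRD9 or, as the control, no gene (scrambled), with 2 libraries of biological duplicates in each of the 3 groups and no other allele or agent named. The labels do not say whether a line is a single clone or a pool. BAF250A, encoded by Arid1a, is a subunit particular to BAF, a form of the SWI/SNF chromatin remodeller, and BRD9 is a subunit of another form, ncBAF. The title of the series asks whether these forms are needed differently in muscle differentiation. The 35 genes were chosen by symbol from targets of ATF4 and CHOP, genes of serine and amino acid supply, and endoplasmic reticulum (ER) chaperones, and all 35 were found among the 27179 genes of each table and had an adjusted p-value in both. They fall into an ATF4 arm of 22 genes and an ATF6/XBP1 arm of 13 genes.

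In the integrated stress response, kinases that sense amino acid shortage, ER stress, heme deficiency or double-stranded RNA phosphorylate the translation factor eIF2, which lowers protein synthesis in general and raises translation of the ATF4 mRNA. ATF4 then activates genes of amino acid uptake and synthesis, and, with CHOP (encoded by Ddit3), genes of feedback and cell death. In the unfolded protein response, the ER membrane proteins ATF6 and IRE1 (encoded by Ern1) respond to misfolded protein: ATF6 is cut to release a transcription factor, and IRE1 splices the Xbp1 mRNA, and both raise ER chaperones and degradation factors. Myoblasts are known to pass through a phase of ER stress signalling as they fuse. The tables count reads per gene, so neither Xbp1 splicing nor ATF4 translation was measured.

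The arms differ in the DNA elements known for them, and the sequences show where these lie in the members measured. A promoter window of 250 bases before to 50 bases after the annotated start (RefSeq, GRCm38.p6, the assembly also called mm10) was found for 30 of the 35 members, 20 of the ATF4 arm and 10 of the ATF6/XBP1 arm. Windows were searched on both strands for the ATF4 and CHOP composite element (CARE, TGATGNAA), the ER stress element (ERSE, CCAAT and CCACG with 9 bases of any kind between them), its second form (ERSE-II, ATTGG and CCACG with 1 base between them), the unfolded protein response element (UPRE, TGACGTGG) and the cyclic AMP response element (CRE, TGACGTCA). ERSE and ERSE-II both end in CCACG, and a stretch can match both. CARE was in 7 of the 20 ATF4 arm genes and 1 of the 10 ATF6/XBP1 arm genes, beside 4.51% of all 27025 genes with a window. ERSE was in 0 of 20 and 4 of 10, beside 0.137% of all genes, and ERSE-II in 0 of 20 and 1 of 10, beside 0.0444%. CRE was in 1 of 20 and 0 of 10, beside 2.03%, and UPRE in 0 of either arm, beside 0.714%. Because the members were chosen as known genes of these pathways, these shares describe the lists and are not an independent test of the arms. The sites below are examples from both arms, with the match in capitals and 8 bases on each side, 5′ to 3′ on the gene's strand. A match on the other strand thus reads as its reverse complement.
Asns, CARE (chr6:7693217-7693240, minus strand): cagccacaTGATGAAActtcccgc
Chac1, CARE (chr2:119351041-119351064, plus strand): ccctgccgTTGCATCActcctgcc
Trib3, CARE (chr2:152344031-152344054, minus strand): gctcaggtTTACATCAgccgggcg
Nupr1, CARE (chr7:126625565-126625588, minus strand): gggccagaTTGCATCAgacagggc
Slc7a11, CARE (chr3:50443664-50443687, minus strand): catgtggcTGATGCAAacctggag
Slc7a11, CARE (chr3:50443645-50443668, minus strand): tggagaatTTGCATCAtcatgcag
Herpud1, CARE (chr8:94386309-94386332, plus strand): acggcgggTTGCATCAgcccgcac
Herpud1, ERSE-II (chr8:94386369-94386395, plus strand): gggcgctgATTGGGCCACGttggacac
Hsp90b1, ERSE (chr10:86705630-86705664, minus strand): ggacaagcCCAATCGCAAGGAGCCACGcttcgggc
Hsp90b1, ERSE (chr10:86705525-86705559, minus strand): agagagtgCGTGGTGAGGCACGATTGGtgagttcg
Calr, ERSE (chr8:84847067-84847101, minus strand): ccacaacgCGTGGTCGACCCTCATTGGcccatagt
Creld2, ERSE (chr15:88819512-88819546, plus strand): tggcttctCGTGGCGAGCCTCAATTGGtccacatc
Herpud1, an ER membrane protein of the degradation pathway, held matches of both kinds. A match describes these letters and does not show that a factor binds there.

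**Figure D1:**
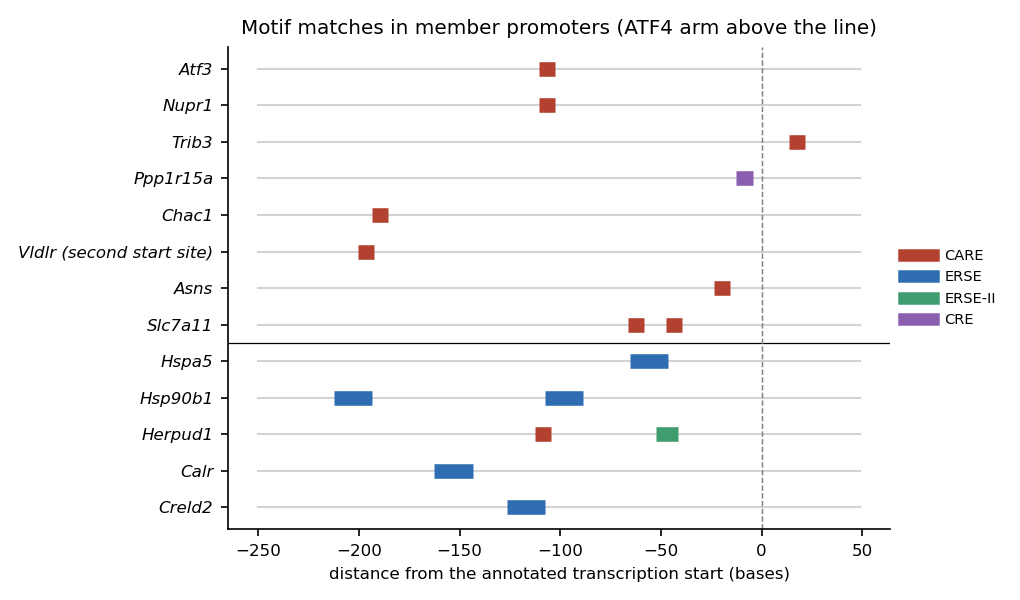
Motif matches in the promoter windows of the members that held one, by distance in bases from the annotated transcription start, whose first base counts as 0. CARE matches (red) lie in 7 genes of the ATF4 arm and in Herpud1, and ERSE matches (blue) in 4 genes of the ATF6/XBP1 arm.

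The measurements of the series set what could be seen. The mean normalized counts of all genes sum to 42781325 (BAF250A) and 42792326 (BRD9), and single libraries were not analysed here, so their spread enters only through the authors' standard errors (SE). Each gene's group means were worked out from its mean normalized count and fold change, and are called implied means. In bulk RNA, fewer cells of a type and less RNA per cell cannot be told apart. Both comparisons share the same scrambled group, whose implied means differed between the tables by log2 ratios of -0.10 to -0.02 over the 35 members. Fold changes are given as the authors' log2 values, positive where the knockdown was higher, and a gene was called at an adjusted p below 0.05 in their Wald test. The labels do not say how the duplicate cultures were separated. The p-values thus rest on a spread between the 2 libraries of a group that may be technical. The smallest called change was 1.02 (BAF250A) and 1.29 (BRD9) in size on the log2 scale, and no change below these sizes was called. Arid1a had an implied mean of 4858 with scrambled shRNA and 1253 with BAF250A knockdown, a log2 fold change of -1.95 (SE 0.48) per the authors' deposited table. Brd9 had implied means of 942 and 311 in its own knockdown, a log2 fold change of -1.60 (SE 0.54) per the authors' deposited table. These 2 genes also set the sign, because the tables do not name the numerator.

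The labelled cell type was checked by 8 muscle markers, all of which were expressed. Their summed implied mean was 621865 normalized counts with scrambled shRNA and 169022 with BAF250A knockdown, and 6 of the 8 fell there. In the BRD9 table it was 647701 and 624432, with 1 of 8 called, higher (Myod1). Of 8 markers of blood, endothelial, epithelial, fat, bone, neuronal and liver cells, 3 had a mean normalized count below 1 in each table (Ptprc, Epcam and, listed at 0, Adipoq). Their summed level went from 6170 to 492 with BAF250A knockdown and from 6419 to 5035 with BRD9 knockdown, most of it the neuronal tubulin gene Tubb3. Of the 4 of these markers that were tested, 3 fell with BAF250A and 2 with BRD9. The macrophage marker Cd68 fell in both, at -2.53 (SE 0.60) and -2.46 (SE 0.62) per the authors' deposited tables. The bone marker Bglap also fell in both, at -5.15 (SE 1.34) and -3.17 (SE 1.07) per the authors' deposited tables. Bglap had low mean normalized counts of 14.5 and 15.9, with 62.9% of its 31-base words shared with other genes. Tubb3 fell with BAF250A. The lower muscle markers moved with every BAF250A result below, and Cd68 and Bglap with the results of both knockdowns, and the part of any of these markers in those results was not tested.

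In BAF250A knockdown the ATF4 arm moved in both directions and no gene of the ATF6/XBP1 arm was called. Enzymes of serine, asparagine and cysteine supply were higher, together with the lipoprotein receptor gene Vldlr and the growth regulator gene Ddit4. Atf3, a stress-induced repressor, and Ppp1r15a, which encodes the phosphatase subunit GADD34 that reverses eIF2 phosphorylation, were lower. Of the 35 members 6 rose and 2 fell, which is 22.9% of them, beside 28.7% of all 16450 genes tested, where 11.2% rose and 17.5% fell. All 8 were in the ATF4 arm, 36.4% of its 22 genes. The median log2 fold change was 0.50 in the ATF4 arm and 0.45 in the ATF6/XBP1 arm, beside -0.18 over all genes tested and 0.03 over the 11677 whose mean was at least 100 normalized counts.

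In BRD9 knockdown the calls lay in factors and feedback genes of the ATF4 arm, and most were lower. Atf3, Ppp1r15a, Ddit3 and Chac1, which encodes an enzyme that degrades glutathione, fell, and Vldlr rose. These 5 genes are 14.3% of the 35 members, beside 14.4% of all 17198 genes tested, where 5.11% rose and 9.33% fell. The share of the whole group is thus near the background in this knockdown. They are 22.7% of the ATF4 arm, and 0 of the 13 genes of the ATF6/XBP1 arm were called by the authors' DESeq2 Wald test (1 at an unadjusted p below 0.05). The median was -0.26 in the ATF4 arm and 0.15 in the ATF6/XBP1 arm, beside -0.15 over all genes tested and 0.05 over the 11698 with a mean of 100 or more.

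**Figure D2:**
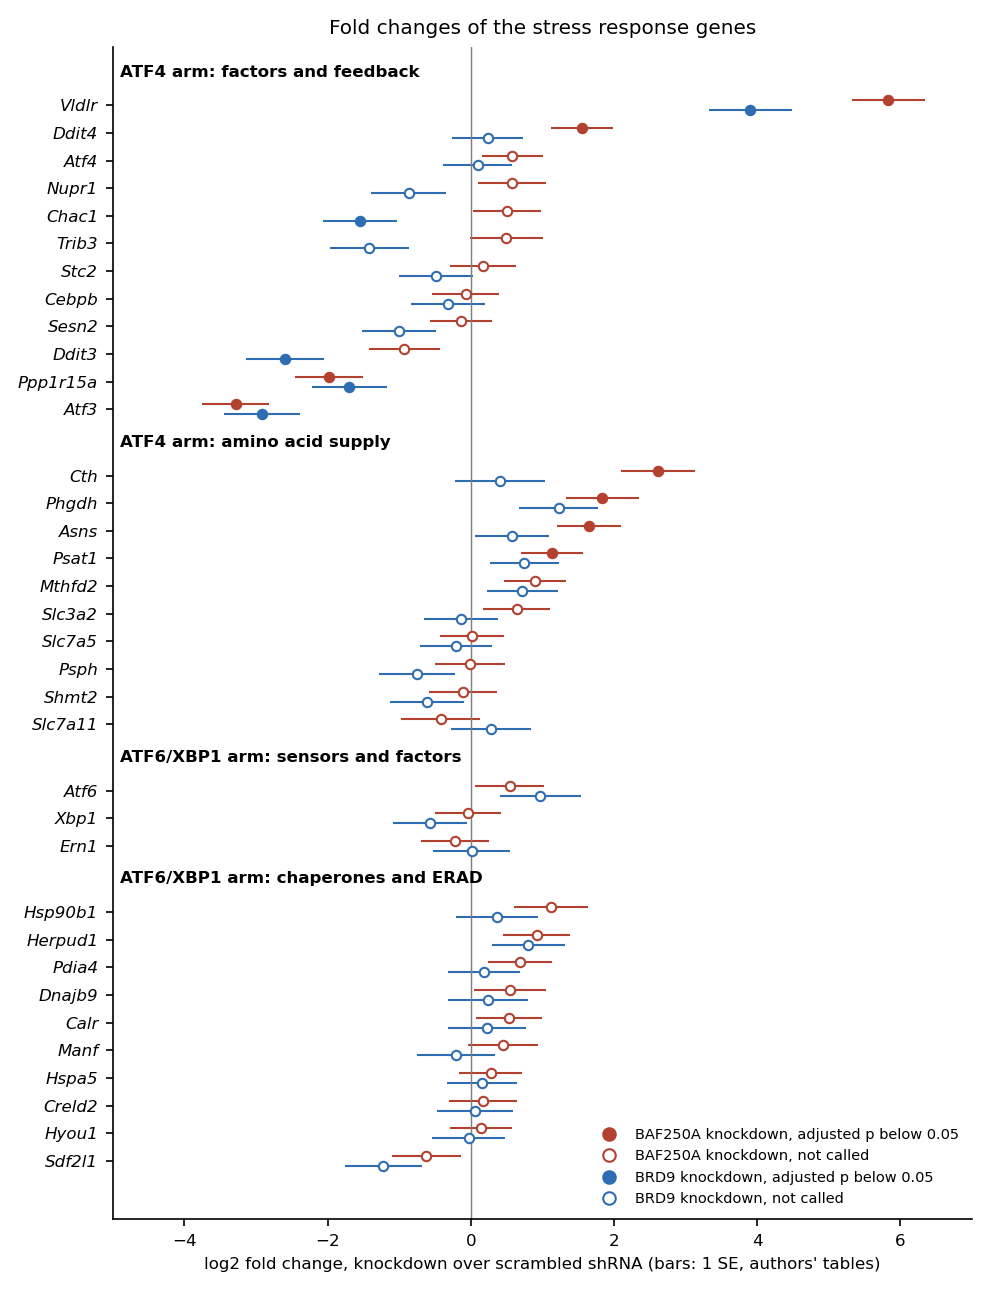
Authors' log2 fold changes of the 35 members, knockdown over scrambled shRNA, with bars of 1 SE. BAF250A knockdown is red and BRD9 knockdown blue, and filled points passed an adjusted p of 0.05. Among these 35 genes the filled points all lie in the ATF4 arm, from -3.29 for Atf3 to 5.83 for Vldlr.

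Among the transcription factors, Atf3 fell furthest. Atf3 (gene 11910, coding for a protein, at 191170296 to 191183333 on chromosome 1 of mm10) had an implied mean of 2132 with scrambled shRNA and 219 with BAF250A knockdown, 10.3% of the scrambled level. In the BRD9 table it had 2208 and 292, or 13.2%. The log2 fold changes were -3.29 (SE 0.47, adjusted Wald p 6.5e-11) and -2.92 (SE 0.53, adjusted Wald p 9.5e-07) per the authors' deposited tables. Atf4 itself, at an implied mean of 8059 with scrambled shRNA, stood at 0.58 (SE 0.43) and 0.09 (SE 0.48) per the authors' deposited tables and passed neither test. Ddit3 (gene 13198, at 127290793 to 127296291 on chromosome 10) went from 6049 to 998 with BRD9 knockdown, a log2 fold change of -2.60 (SE 0.55, adjusted Wald p 3.8e-05) per the authors' deposited table. With BAF250A knockdown Ddit3 had 5866 and 3087, and its value of -0.93 (SE 0.50, adjusted Wald p 0.16) did not pass per the authors' deposited table. Ddit3 shares 2.22% of its 31-base words with the methionyl-tRNA synthetase gene Mars1, and Mars1 stood at 0.94 (SE 0.46) and 0.22 (SE 0.50) per the authors' deposited tables. Cebpb, a partner of CHOP, stood at -0.07 (SE 0.47) and -0.32 (SE 0.51) per the authors' deposited tables, and these values are uncertain, since 19.6% of its words are shared, mainly with Tmem189. Nupr1, a stress-induced chromatin protein, stood at 0.57 (SE 0.47) and -0.87 (SE 0.53) per the authors' deposited tables and was not called.

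Chac1 and the genes of feedback and growth restraint in the ATF4 arm were divided. Ppp1r15a (gene 17872, at 45522917 to 45526268 on chromosome 7) had an implied mean of 4969 with scrambled shRNA and 1258 with BAF250A knockdown, and 5137 and 1582 in the BRD9 table. It fell by 1.98 (SE 0.47, adjusted Wald p 0.00022) and 1.70 (SE 0.53, adjusted Wald p 0.011) on the log2 scale per the authors' deposited tables. Chac1 (gene 69065, at 119351242 to 119354326 on chromosome 2) went from 5311 to 1824 with BRD9 knockdown and from 5199 to 7376 with BAF250A knockdown. Its log2 fold changes were -1.54 (SE 0.52, adjusted Wald p 0.023) with BRD9, a call, and 0.50 (SE 0.48, adjusted Wald p 0.46) with BAF250A, not a call, per the authors' deposited tables. Trib3, a pseudokinase that holds back ATF4 and CHOP, had the same shape, from 4115 to 1541 with BRD9 and from 4047 to 5713 with BAF250A, but passed neither test (-1.42, SE 0.55, adjusted Wald p 0.068, and 0.50, SE 0.51, per the authors' deposited tables). Sesn2, which restrains growth signalling, stood at -1.01 (SE 0.52) with BRD9 and -0.14 (SE 0.43) with BAF250A per the authors' deposited tables. Ddit4 (gene 74747, at 59949675 to 59951770 on chromosome 10), another restraint on growth signalling through mTORC1, went from 3882 to 11356 with BAF250A knockdown and from 3991 to 4695 with BRD9 knockdown. It rose by 1.55 (SE 0.43, adjusted Wald p 0.0021) with BAF250A and stood at 0.23 (SE 0.50) with BRD9 per the authors' deposited tables.

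Vldlr had the largest change of the 35 genes in each knockdown. Vldlr (gene 22359, at 27216480 to 27254231 on chromosome 19), a receptor for lipoproteins and reelin that ATF4 is known to activate in other cells, had an implied mean of 44.6 with scrambled shRNA and 2539 with BAF250A knockdown. In the BRD9 table it had 47.7 and 714. These are 56.9-fold and 15.0-fold higher levels, with log2 fold changes of 5.83 (SE 0.51, adjusted Wald p 1.5e-28) and 3.90 (SE 0.58, adjusted Wald p 6.7e-10) per the authors' deposited tables. Per kilobase of annotated exon it was also the lowest of the 35 members with scrambled shRNA, at an implied 5.37 normalized counts, where the next, Ern1, had 75.2. Stc2, a secreted glycoprotein of the same arm, stood at 0.17 (SE 0.45) and -0.48 (SE 0.51) per the authors' deposited tables. Because the scrambled libraries serve both comparisons, the values of Atf3, Ppp1r15a and Vldlr in the knockdowns are not independent of each other. Their promoter windows are shown whole because these genes were called in the same direction in both tables, with motif matches in capitals.
Atf3 promoter (chr1:191183284-191183583, minus strand): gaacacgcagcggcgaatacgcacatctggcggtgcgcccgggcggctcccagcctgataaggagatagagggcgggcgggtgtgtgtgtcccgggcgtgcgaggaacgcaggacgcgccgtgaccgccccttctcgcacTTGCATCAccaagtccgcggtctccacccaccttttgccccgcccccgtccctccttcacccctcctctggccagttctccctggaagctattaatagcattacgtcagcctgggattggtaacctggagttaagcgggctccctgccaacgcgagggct
Ppp1r15a promoter (chr7:45526219-45526518, minus strand): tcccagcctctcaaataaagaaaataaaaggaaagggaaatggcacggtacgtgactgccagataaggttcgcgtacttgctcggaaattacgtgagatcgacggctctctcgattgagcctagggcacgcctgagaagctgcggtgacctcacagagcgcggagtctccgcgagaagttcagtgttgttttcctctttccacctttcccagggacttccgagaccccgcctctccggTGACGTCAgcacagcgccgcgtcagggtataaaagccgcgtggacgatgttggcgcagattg
Vldlr promoter (chr19:27216770-27217069, plus strand): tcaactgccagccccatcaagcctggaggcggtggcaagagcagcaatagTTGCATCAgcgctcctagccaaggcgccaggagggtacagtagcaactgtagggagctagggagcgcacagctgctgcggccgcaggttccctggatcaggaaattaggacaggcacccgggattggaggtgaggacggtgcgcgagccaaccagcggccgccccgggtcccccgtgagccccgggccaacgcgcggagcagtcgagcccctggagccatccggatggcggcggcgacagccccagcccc
The capitals mark CARE in Atf3, CRE in Ppp1r15a and CARE in Vldlr. For Vldlr the window of the second annotated start site is shown, and the window of the first held no match. CARE matches thus occur in a gene that fell, Atf3, and in a gene that rose, Vldlr.

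**Figure D3:**
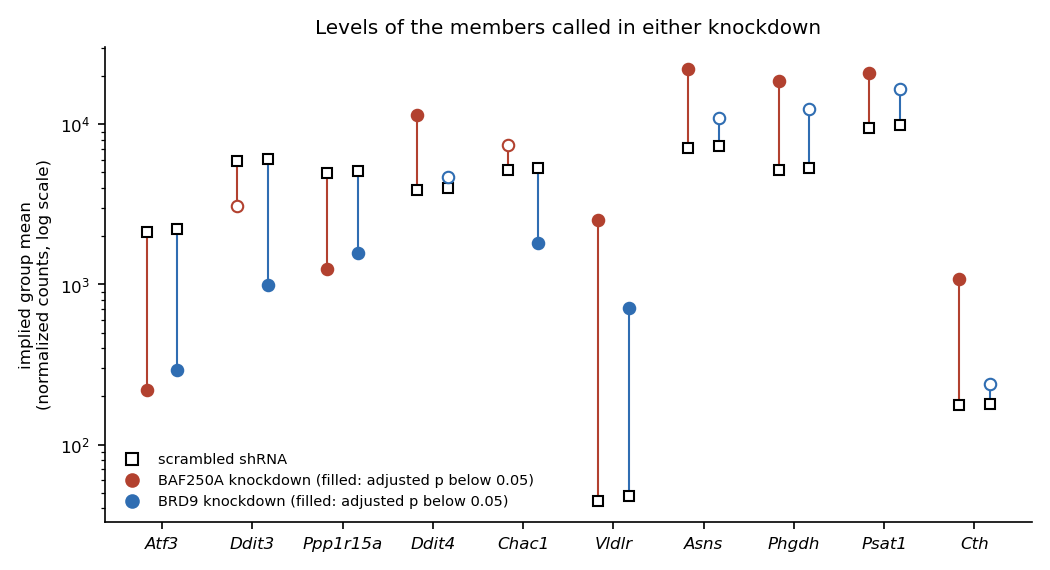
Implied group means in normalized counts, on a log axis, of the 10 members called in either knockdown. Squares are the scrambled group as implied by each comparison, and circles the knockdown, filled where called. Vldlr rises from about 44.6 to 2539 with BAF250A knockdown, and Atf3 falls from 2132 to 219.

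Of the 10 genes of amino acid supply, 4 rose and 0 fell in BAF250A knockdown, beside 11.2% of all genes tested that rose and 17.5% that fell. In BRD9 knockdown 0 of the 10 were called, beside 14.4% of all genes, by the authors' DESeq2 Wald test (1 at an unadjusted p below 0.05). Cth (gene 107869, at 157894248 to 157925081 on chromosome 3), which makes cysteine from cystathionine, went from 177 to 1084 with BAF250A and from 179 to 238 with BRD9. It rose by 2.62 (SE 0.52, adjusted Wald p 5.0e-06) with BAF250A and stood at 0.41 (SE 0.62) with BRD9 per the authors' deposited tables. Asns, asparagine synthetase (gene 27053, at 7675165 to 7693209 on chromosome 6), had 7086 and 22251 with BAF250A, a rise of 1.65 (SE 0.44, adjusted Wald p 0.0014), and 7302 and 10907 with BRD9, at 0.58 (SE 0.52), per the authors' deposited tables. Psat1 (gene 107272, at 15905123 to 15925059 on chromosome 19), the aminotransferase of serine synthesis, went from 9459 to 20758 with BAF250A and from 9844 to 16533 with BRD9. Psat1 rose by 1.13 (SE 0.44, adjusted Wald p 0.037) with BAF250A and stood at 0.75 (SE 0.48) with BRD9 per the authors' deposited tables. Phgdh (gene 236539, at 98313171 to 98339969 on chromosome 3), the first enzyme of serine synthesis, went from 5184 to 18529 with BAF250A and from 5356 to 12541 with BRD9. Phgdh rose by 1.84 (SE 0.51, adjusted Wald p 0.0023) with BAF250A and stood at 1.23 (SE 0.55) with BRD9 per the authors' deposited tables. Its values are uncertain, because 56.3% of its 31-base words occur in other transcripts, 44.8% in Gm7901.

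The third serine enzyme, the folate enzymes and the transporters were not called. Psph, the phosphatase that completes serine, stood at -0.01 (SE 0.49) and -0.75 (SE 0.53) per the authors' deposited tables. Of the mitochondrial folate enzymes, Shmt2, which splits serine, stood at -0.11 (SE 0.48) and -0.61 (SE 0.52), and Mthfd2 at 0.90 (SE 0.43) and 0.72 (SE 0.50), per the authors' deposited tables. The cystine transporter gene Slc7a11, whose window holds a pair of CARE matches, stood at -0.42 (SE 0.55) and 0.28 (SE 0.56) per the authors' deposited tables. Slc7a5, the leucine transporter, stood at 0.02 (SE 0.45) and -0.20 (SE 0.50), and its partner chain Slc3a2 at 0.64 (SE 0.47) and -0.14 (SE 0.52), per the authors' deposited tables. None of these 6 genes passed either test, which does not show that they were unchanged. With BAF250A, Mthfd2 had an unadjusted Wald p of 0.038, and the 95% interval of Slc3a2 was -0.28 to 1.56.

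No member of the ATF6/XBP1 arm was called in either knockdown by the authors' DESeq2 Wald test, with 2 of 13 genes at an unadjusted p below 0.05 for BAF250A (Hsp90b1 and Herpud1) and 1 for BRD9 (Sdf2l1). Over all genes tested 38.1% and 24.1% reached that level. Log2 fold changes ran from -0.62 (Sdf2l1) to 1.12 (Hsp90b1) with BAF250A and from -1.22 (Sdf2l1) to 0.97 (Atf6) with BRD9. Hspa5, which encodes BiP, the central ER chaperone and sensor of misfolding, had implied means of 20045 and 24258 with BAF250A and 21040 and 23426 with BRD9. Its 95% intervals were -0.59 to 1.14 and -0.81 to 1.12 on the log2 scale, so a change within those bounds could not be told from none. Its window holds an ERSE, in capitals, and is shown as the reference of this arm.
Hspa5 promoter (chr2:34771840-34772139, plus strand): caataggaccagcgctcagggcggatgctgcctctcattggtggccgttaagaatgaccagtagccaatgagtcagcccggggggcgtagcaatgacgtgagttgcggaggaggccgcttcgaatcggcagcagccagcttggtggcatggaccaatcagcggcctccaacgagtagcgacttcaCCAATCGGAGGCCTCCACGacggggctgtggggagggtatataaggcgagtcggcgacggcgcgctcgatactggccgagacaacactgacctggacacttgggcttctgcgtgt
Hsp90b1, the ER form of HSP90, had implied means of 17306 and 37564 with BAF250A and stood at 1.12 (SE 0.52, adjusted Wald p 0.089) per the authors' deposited table, with 12.3% of its words shared with other genes. With BRD9 it stood at 0.37 (SE 0.57) per the authors' deposited table. Herpud1 stood at 0.92 (SE 0.47) and 0.80 (SE 0.51), and the chaperone cofactor gene Sdf2l1 at -0.62 (SE 0.48) and -1.22 (SE 0.54), per the authors' deposited tables.

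Atf6 stood at 0.54 (SE 0.48) and 0.97 (SE 0.56), Ern1 at -0.22 (SE 0.48) and 0.01 (SE 0.54), and Xbp1 at -0.04 (SE 0.46) and -0.57 (SE 0.51), per the authors' deposited tables. Calr, a calcium-binding lectin chaperone and the most abundant member per kilobase of exon (14700 implied normalized counts with scrambled shRNA), stood at 0.54 (SE 0.46) and 0.22 (SE 0.54) per the authors' deposited tables. The disulfide isomerase gene Pdia4 stood at 0.68 (SE 0.44) and 0.19 (SE 0.50), and the secreted ER factor gene Manf at 0.45 (SE 0.48) and -0.21 (SE 0.54), per the authors' deposited tables. Creld2, an ER stress-inducible calcium-binding protein gene, stood at 0.17 (SE 0.48) and 0.06 (SE 0.53), and the nucleotide exchange factor gene Hyou1 at 0.14 (SE 0.44) and -0.03 (SE 0.51), per the authors' deposited tables. Dnajb9, a cochaperone that restrains IRE1, stood at 0.55 (SE 0.51) and 0.24 (SE 0.56) per the authors' deposited tables, with 10.8% of its words in Gm6568. Gm6568, at mean normalized counts of 35.8 and 38.3, fell, with log2 fold changes of -6.39 (SE 1.24) and -4.86 (SE 0.97), per the authors' deposited tables.

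The knockdowns were then set against each other, as the difference of their log2 fold changes (BAF250A minus BRD9). No member passed this test after Benjamini-Hochberg adjustment, beside 2.54% of the 16311 genes tested, and 7 of 35 had an unadjusted normal p below 0.05, all in the ATF4 arm, beside 8.35% of all genes. The SE of this test sums both variances although the scrambled libraries cancel, so it is too wide. With the variance set to 50% of that sum, which treats the scrambled libraries as holding an equal share with the knockdown libraries, 5 members passed, or 14.3%, beside 7.55% of all genes in that form of the test. They were Chac1, with a difference of 2.05 (SE 0.70 summed, adjusted p 0.11 by the z test, and 0.0011 at the smaller variance), Cth at 2.21 (SE 0.81, adjusted p 0.16 and 0.0029), Trib3 at 1.91 (SE 0.75, adjusted p 0.24 and 0.0072), Vldlr at 1.93 (SE 0.77, adjusted p 0.26 and 0.0083) and Ddit3 at 1.67 (SE 0.74, adjusted p 0.40 and 0.024). In all 5 the level was higher with BAF250A than with BRD9 knockdown. Nupr1 and Ddit4 differed by 1.44 (SE 0.71) and 1.31 (SE 0.66) and passed in neither form, with adjusted p of 0.54 and 0.57 by the z test. The median difference was 0.70 in the ATF4 arm and 0.31 in the ATF6/XBP1 arm, beside 0.00 over all genes tested. For Atf3 and Ppp1r15a the differences were -0.37 and -0.28, with 95% intervals of -1.76 to 1.02 and -1.66 to 1.10, so a difference within those bounds could not be told from none. For Asns the interval was -0.27 to 2.41, so its call with BAF250A and not with BRD9 does not show a difference between the knockdowns.

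Genes of the same pathways outside the 35 members were counted by list. Among 18 kinases, eIF2 and eIF2B subunits and regulators, 2 rose and 3 fell with BAF250A, and 0 rose and 3 fell with BRD9. These are 27.8% and 16.7% of the list, near the 28.7% and 14.4% of all genes tested. Eif2ak2, the double-stranded RNA kinase PKR and an interferon-inducible gene, fell by 2.47 (SE 0.55) and 2.87 (SE 0.61) on the log2 scale per the authors' deposited tables. Atf5, an ATF4-related factor, fell by 1.55 (SE 0.46) and 2.07 (SE 0.51), and Gdf15, a secreted stress hormone, by 1.43 (SE 0.47) and 1.69 (SE 0.55), per the authors' deposited tables. Eif2ak4, the amino acid sensor GCN2, rose by 1.68 (SE 0.51) with BAF250A and stood at 1.11 (SE 0.56) with BRD9 per the authors' deposited tables. The pseudokinase gene Trib2 rose by 2.55 (SE 0.47) with BAF250A and stood at 1.38 (SE 0.54, adjusted Wald p 0.066) with BRD9 per the authors' deposited tables. Of 12 further genes of amino acid transport and synthesis, 4 rose and 0 fell with BAF250A, with a median of 0.81. The share called, 33.3%, is near the 28.7% of all genes, of which 11.2% rose. With BRD9 8.33% were called, beside 14.4%. The 4 genes were Cbs, the proline enzyme gene Pycr1, the folate enzyme gene Mthfd1l and the serine carrier gene Slc1a4. Cbs, which feeds Cth, had only an implied 15.8 normalized counts with scrambled shRNA and rose by 2.97 (SE 0.71). The others rose by 2.26 (SE 0.43), 1.83 (SE 0.46) and 1.34 (SE 0.44), all per the authors' deposited table. With BRD9 these 4 stood at 1.59 (SE 0.86), 0.49 (SE 0.48), 0.79 (SE 0.50) and 0.29 (SE 0.49) per the authors' deposited table and were not called. With BRD9 the single call among the 12 was Slc7a3, an arginine carrier at an implied 24.3 normalized counts with scrambled shRNA, at -3.31 (SE 1.11) per the authors' deposited table.

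Of 20 cytosolic aminoacyl-tRNA synthetase genes, which charge tRNAs and include many ATF4 targets, 5 rose and 0 fell with BAF250A and 1 rose with BRD9. The shares called, 25% and 5%, are below the 28.7% and 14.4% of all genes, and the medians were 0.64 and 0.22. These calls were all rises, and the shares of all genes that rose were 11.2% and 5.11%. Iars, the isoleucine enzyme, rose by 1.69 (SE 0.42) and 1.62 (SE 0.48) per the authors' deposited tables, with 14.7% of its words shared, and Dars and Eprs by 1.62 (SE 0.48) and 1.49 (SE 0.48) with BAF250A per the authors' deposited table. With BRD9 Dars stood at 1.30 (SE 0.53, adjusted Wald p 0.083) and Eprs at 0.69 (SE 0.53) per the authors' deposited table. Of 27 further ER folding and degradation genes, 8 rose and 0 fell with BAF250A, with a median of 0.12, and 1 rose with BRD9. The shares called were 29.6%, near the 28.7% of all genes, and 3.70%, below their 14.4%. All of these calls were rises, and of all genes tested 11.2% and 5.11% rose. Ero1a, the ER oxidase that CHOP and hypoxia are known to induce, rose by 3.54 (SE 0.44) with BAF250A per the authors' deposited table, from 1297 to 15126. With BRD9 Ero1a went from 1398 to 4788 and stood at 1.78 (SE 0.69, adjusted Wald p 0.067) per the authors' deposited table. Sec61b, a subunit of the ER protein channel, rose by 2.42 (SE 0.46) and 1.82 (SE 0.52) per the authors' deposited tables, with 23.5% of its words shared. Sec24d, a coat protein of ER export, and Creb3l1, a membrane-bound factor of secretory cells, rose by 1.78 (SE 0.51) and 1.72 (SE 0.43) with BAF250A per the authors' deposited table. With BRD9 Sec24d stood at 1.42 (SE 0.56, adjusted Wald p 0.072) and Creb3l1 at 0.94 (SE 0.55) per the authors' deposited table. In these 4 lists 0 genes passed the z test of the difference between the knockdowns after Benjamini-Hochberg adjustment, beside 2.54% of all genes. An unadjusted p below 0.05 was reached by 1 gene of amino acid transport and synthesis and 1 of ER folding, beside 8.35% of all genes. That test used the summed variance, which is too wide. At the smaller variance described for the members, Pycr1 passed the z test, with a difference of 1.78 (adjusted p 0.0026). Ero1a also passed in that form, with a difference of 1.77 (adjusted p 0.034), beside 7.55% of all genes. For the other genes of these lists, a call with BAF250A and not with BRD9 is not shown to differ between the knockdowns.

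**Figure D4:**
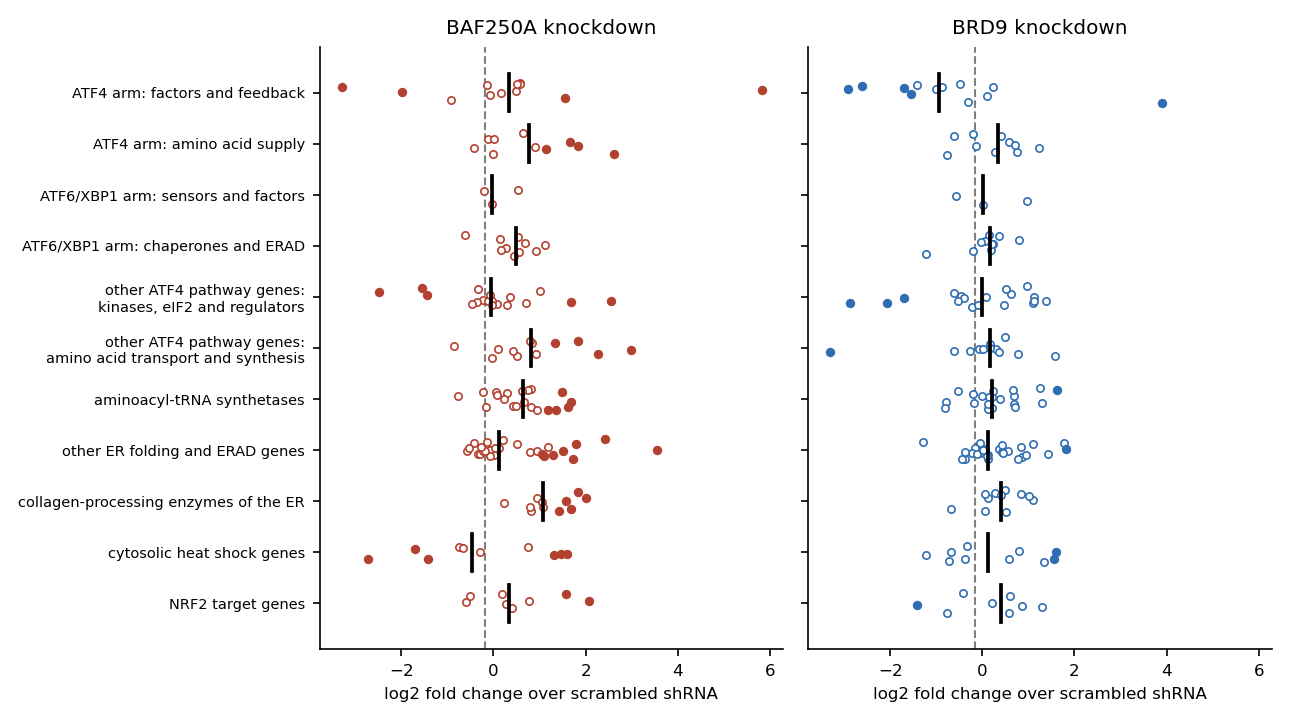
Authors' log2 fold changes of every tested gene of each list, knockdown over scrambled shRNA, with filled points called at an adjusted p below 0.05, black bars at list medians and a dashed line at the median of all genes tested (-0.18 and -0.15). The ATF6/XBP1 rows hold no filled point, and the other ER folding row holds 8 with BAF250A knockdown and 1 with BRD9 knockdown.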

How the data were processed

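RNA was sequenced from 6 libraries in 3 groups of 2, and the series design text says that a sequencing company prepared, sequenced and analysed them. Of tools, DESeq2, RSEM, Bowtie, StringTie and HISAT appear in the submitters' processing notes, with the build mm10 and with no role or version. Both comparison tables deposited by the authors hold, per the file headers, a mean normalized count (a signal averaged over the 4 libraries of a comparison), a log2 fold change, its SE on the log2 scale, a Wald score, a p-value and an adjusted p-value. The deposited adjusted p-values equalled a Benjamini-Hochberg adjustment over the 16450 and 17198 genes that have one, within a log10 ratio of 0.0031. The deposited fold changes appear shrunk at low counts, since no gene with a mean below 1 exceeded 1.39 in size on the log2 scale.

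The authors' test was taken as deposited over all genes. From the tables were computed implied group means (taking each fold change as a ratio of group means), normal 95% intervals and the difference between knockdowns as a z test over all genes tested in both tables. The z test was checked on simulated fold changes drawn independently for the 2 knockdowns. That check holds no shared scrambled libraries, so it does not bear on the smaller variance. Exon lengths and 31-base words shared between genes came from GENCODE M21. All 159 list genes had values for both. Members and lists were chosen with earlier results of these data known. All 35 members are named, and of each other list at most 4 called genes per comparison with the largest changes. Alternatives were other thresholds, adjustments, filters, centring and variance, and members without near-identical copies. Python 3.11.15, pandas 2.3.3 and scipy 1.17.1 were used.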

Additional observations from a re-analysis of the deposited data

How the results depend on the processing

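Leaving out a replicate was not run, because values per library were not analysed here. No paired analysis was possible because the tables give no values per library. The number called among all genes was 1565 (BAF250A) and 940 (BRD9) with Bonferroni adjustment, and 3 of the 35 members remained in each, all in the ATF4 arm. At an adjusted p below 0.01, 3 members remained for BRD9, and all called members but Psat1 for BAF250A, all in the ATF4 arm. The share of all genes at that threshold is not given here, so these members have no background beside them. Bonferroni adjustment ended the calls of Ppp1r15a, Ddit4, Asns, Phgdh and Psat1 (BAF250A) and of Ppp1r15a and Chac1 (BRD9), and the threshold of 0.01 those of Psat1 (BAF250A), Ppp1r15a and Chac1 (BRD9). For the difference between the knockdowns, 414 of all genes were called, 271 at an adjusted p below 0.01, 123 with Bonferroni adjustment, 271 among genes with a mean of 100 or more, and 1231 at 50% of the summed variance, where 5 members passed, all in the ATF4 arm. Centring on the median of genes with a mean of 100 or more (0.03 and 0.05) changed no member's call and turned the sign of Slc7a5 to -0.020 (BAF250A) and of Ern1 to -0.033 (BRD9). Removing the low-count filter, or testing only genes with a mean of 100 or more, changed no member's call. Leaving out the 4 members with over 10% shared words (Phgdh, Cebpb, Hsp90b1 and Dnajb9) kept the ATF4 arm at 7 and 5 calls. Depth per library and its effect on single genes were not analysed here.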

Other observations

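Further lists touch on the same organelle and stresses. They too were chosen with earlier results of these data known, so a share above that of all genes is not a test. Of 11 collagen-processing enzymes of the ER, 5 rose and 0 fell with BAF250A knockdown, at a median of 1.07 on the log2 scale. This is 45.5% called, beside 28.7% of all genes called and 11.2% that rose. With BRD9 0 were called, beside 14.4% of all genes, by the authors' DESeq2 Wald test (1 at an unadjusted p below 0.05), with a median of 0.41. The prolyl hydroxylase genes P4ha1, P4ha3 and P4ha2 rose by 2.01 (SE 0.42), 1.84 (SE 0.43) and 1.58 (SE 0.48) with BAF250A per the authors' deposited table. With BRD9 they stood at 1.09 (SE 0.47), 0.84 (SE 0.51) and 0.06 (SE 0.52) per the authors' deposited table. Ppib, a prolyl isomerase, rose by 1.69 (SE 0.46) with BAF250A and stood at 1.01 (SE 0.52) with BRD9 per the authors' deposited tables, with 37.0% of its words shared with other genes. Serpinh1, the collagen chaperone, stood at 0.94 (SE 0.45) and 0.12 (SE 0.51) per the authors' deposited tables.

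Of 10 cytosolic and mitochondrial heat shock genes, 3 rose and 3 fell with BAF250A, and 2 rose and 0 fell with BRD9, or 60% and 20% called beside 28.7% and 14.4% of all genes. Hspa1a and the small heat shock gene Hspb1 fell by 2.72 (SE 0.51) and 1.70 (SE 0.46) on the log2 scale with BAF250A and stood at -1.23 (SE 0.53) and -0.71 (SE 0.50) with BRD9 per the authors' deposited tables. Hspa8 rose by 1.59 (SE 0.42) and 1.56 (SE 0.47), and the mitochondrial chaperone gene Hspd1 by 1.46 (SE 0.46) and 1.60 (SE 0.52), per the authors' deposited tables. All 4 share many words with other genes (70.1%, 55.4%, 44.8% and 53.1%), so their values are uncertain. Of 8 NRF2 targets, 2 rose with BAF250A and 1 fell with BRD9, or 25% and 12.5%. Of all genes 28.7% and 14.4% were called, with 11.2% higher with BAF250A and 9.33% lower with BRD9. Me1 and the quinone reductase gene Nqo1 rose by 2.07 (SE 0.45) and 1.57 (SE 0.45) with BAF250A, and the heme oxygenase gene Hmox1 fell by 1.42 (SE 0.52) with BRD9, per the authors' deposited tables, Me1 with 36.9% of its words shared. Me1 and Nqo1 stood at 1.30 (SE 0.51) and 0.87 (SE 0.50) with BRD9, and Hmox1 at -0.59 (SE 0.47) with BAF250A, per the authors' deposited tables. In these 3 lists 0 genes passed the z test of the difference between the knockdowns after Benjamini-Hochberg adjustment, beside 2.54% of all genes. An unadjusted p below 0.05 was reached by 1, 2 and 0 genes, beside 8.35% of all genes. That form used the summed variance, which is too wide. At the smaller variance described for the members, P4ha2 passed the z test, with a difference of 1.52 (adjusted p 0.032), beside 7.55% of all genes in that form.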
